A study of Rattus norvegicus with 52 samples.

Results

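The genes described here are 9 regulators known from the luminal lineage of the mammary gland, the transcription factors *Foxa1*, *Gata3*, *Elf5*, *Ehf*, *Elf3*, *Tfap2c*, *Grhl2* and *Spdef* and the receptor tyrosine kinase *Kit*. They were chosen by symbol, 9 of the 17356 genes counted in each of 48 RNA-seq libraries of sorted rat mammary epithelial cells, and all 9 were found. The study asked what loss of the cell cycle inhibitor p27, the product of *Cdkn1b*, does to mammary epithelial cells, and compared the ACI strain, susceptible to estrogen-induced mammary tumors, with the resistant BN strain. The *Cdkn1b*-/- rats carried a CRISPR-Cas9 deletion in the first coding exon that was made in Sprague-Dawley zygotes and crossed onto ACI. More than 1 deletion allele was made, and the labels do not say which allele a library came from. According to the paper, glands for sorting came from early and late backcross generations, which the library titles do not tell apart. How much Sprague-Dawley genome the rats behind each library carried is therefore not known.

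At 9 weeks of age, *Cdkn1b*-/- and *Cdkn1b*+/+ ACI females each gave 2 libraries from every one of 4 gates, which were basal/myoepithelial cells (Cd24+ Cd29HIGH), mature luminal cells (Cd24+ Cd29LOW Cd49b- PNA-), and luminal progenitors sorted either as Cd24+ Cd29LOW Cd49b+ or as Cd24+ Cd29LOW PNA+. PNA is a lectin and Cd49b an integrin, and both luminal progenitor gates are combined below as LP, with 4 libraries per genotype. At 4 weeks the libraries were 3 luminal (Cd24+ Cd29LOW) and 3 basal from *Cdkn1b*+/+ ACI rats and 3 luminal and 2 basal from *Cdkn1b*-/- ACI rats. At 6 weeks they were 2 luminal and 3 basal from *Cdkn1b*+/+ and 2 of each from *Cdkn1b*-/- ACI rats. Title codes of 6 weeks end in 5.9 for *Cdkn1b*+/+ rats, and in 5.3 for library 1 and 5.9 for library 2 of *Cdkn1b*-/- rats. At 4 weeks 1 *Cdkn1b*+/+ code ends in 3.4. If these are ages in weeks, age and genotype cannot be fully told apart at 6 weeks. The E2 experiment used female ACI and BN rats, with or without 3 weeks of 17β-estradiol (E2), and its labels give neither an age nor a *Cdkn1b* genotype. It held 2 luminal and 2 basal libraries per ACI arm and 1 of each per BN arm, and the title of each BN library carries 2 animal numbers. In all, 28 libraries were luminal and 20 basal. Nothing in the labels says that numbered 9-week libraries came from separate animals, and p-values then measure the spread between these libraries, which may be technical in part.

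*Foxa1* is a pioneer factor that opens chromatin for the estrogen receptor, and *Gata3* is needed to form and keep luminal cells, so both are associated with hormone-sensing luminal cells. *Elf5*, *Ehf*, *Elf3* and *Spdef* encode ETS factors. *Elf5* directs the alveolar, milk-secreting fate of luminal progenitors, *Ehf* and *Elf3* belong to the epithelium-specific ETS group, and *Spdef* is a factor of secretory and luminal epithelia. *Tfap2c* encodes an AP-2 factor of mammary and skin epithelium, *Grhl2* a grainyhead factor that maintains the junctions of epithelial cells, and *Kit* the stem cell factor receptor, widely used as a surface mark of luminal progenitors.

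Counts on genes per library ranged from 21545344 to 33859550 at 9 weeks, from 14674040 to 23045345 at 4 weeks, from 7985619 to 16390460 at 6 weeks and from 13659389 to 25280421 in the E2 experiment. Levels are given as CPM, each gene's counts scaled to a common total of counts on genes, which are not scaled for gene length, so levels are compared between libraries and not between genes. *Cdkn1b* itself was at 6.00 to 18.0 CPM in the 9-week *Cdkn1b*+/+ libraries and at 1.59 to 4.24 CPM in the *Cdkn1b*-/- libraries, with no overlap. Some libraries stood apart from their labels. *Cdkn1b*-/- luminal library 2 of 6 weeks had 7132 CPM summed over 5 adipocyte markers, against at most 123 CPM in the other 6-week libraries. It also had 3076 CPM of fibroblast and 1376 CPM of endothelial markers. The other luminal libraries of 6 weeks had 16.6 to 117 CPM and 2.63 to 228 CPM of these. Counts fell on 9241 genes in that library, against 10956 to 12761 in the other luminal libraries of 6 weeks. In the E2 experiment, ACI E2 basal library 1, ACI control basal library 2 and the BN control basal library had 1946, 5806 and 4580 CPM summed over 7 basal markers, against 8426 to 12489 CPM in the other basal libraries of that experiment. The 3 *Cdkn1b*+/+ basal libraries of 6 weeks had 4540, 5128 and 3694 CPM of them, against 9377 to 15500 CPM in the other basal libraries of 4 and 6 weeks. In the E2 experiment ACI E2 luminal library 1 had 6689 CPM over 6 fibroblast and 946 CPM over the adipocyte markers, against at most 920 and 67.5 CPM in the other luminal libraries, and 11783 CPM over 7 luminal markers, where the others had at least 18393 CPM. The BN E2 basal library had 16612 CPM of fibroblast markers, against 565 to 2749 CPM in the other basal libraries of that experiment. Basal libraries of 9 weeks carried 4434 to 28309 CPM of milk protein genes, against 12.3 to 122 CPM in basal libraries of 4 and 6 weeks.

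Across all libraries, 8 of the 9 genes had their higher median level in luminal cells and *Tfap2c* had it in basal cells. Luminal and basal libraries that share a title code, or a genotype and number at 9 weeks, form 27 pairs, in which a basal library can stand for more than 1 luminal library. *Foxa1*, *Elf5*, *Ehf*, *Elf3* and *Kit* were higher in the luminal library in 27 of 27 pairs, *Grhl2* in 26, *Spdef* in 25, *Gata3* in 20 and *Tfap2c* in 2. Both *Tfap2c* exceptions lay in the E2 experiment. In bulk samples, fewer cells of a type and less RNA per cell cannot be told apart.

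**Figure D1:**
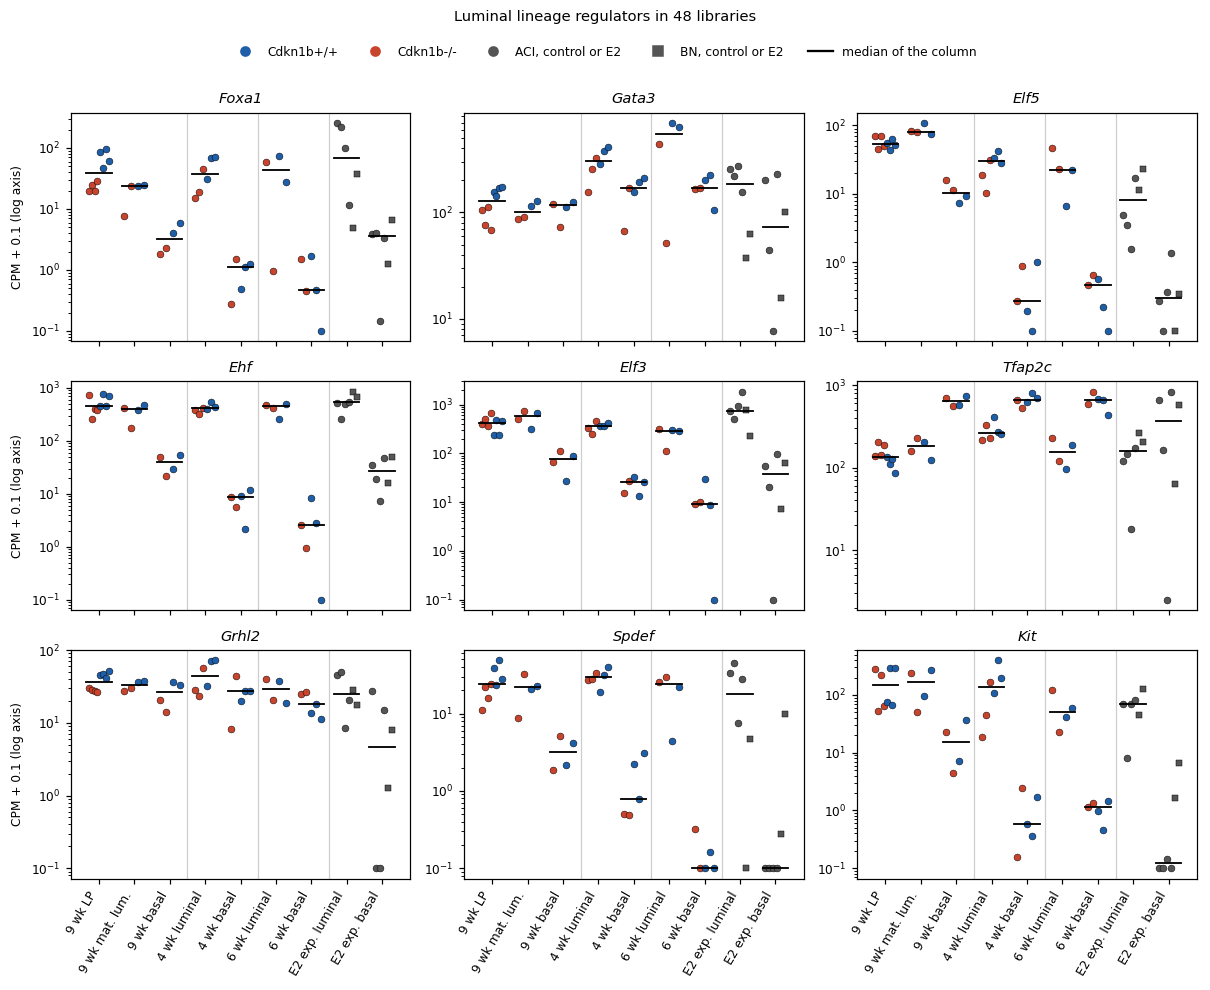
Level of each of the 9 genes in all 48 libraries, in CPM on a log axis, with 1 point per library and columns for the 9-week, 4-week, 6-week and E2 groups. *Tfap2c* is the gene whose basal libraries, with a median of 636 CPM, sit above its luminal libraries, with a median of 180 CPM.

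*Foxa1* ranged from 0.862 to 257 CPM over the 28 luminal libraries, with a median of 29.7 CPM, and from 0 to 6.41 CPM over the 20 basal libraries, with a median of 1.41 CPM. The lowest luminal value belonged to the library with adipocyte RNA. *Gata3* overlapped between the compartments, from 36.9 through a median of 156 to 693 CPM in luminal and from 7.61 through 141 to 229 CPM in basal libraries. Its luminal levels were highest at 6 weeks, at 693 and 641 CPM in the *Cdkn1b*+/+ libraries. The luminal median was 21.1-fold the basal median for *Foxa1* and 1.11-fold for *Gata3*.

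Of the ETS genes, *Elf5* ranged from 1.46 to 109 CPM in luminal libraries, with a median of 38.0 CPM, and had a basal median of 0.319 CPM. Its basal levels differed by age, from 0 to 0.930 CPM at 4 and 6 weeks to 7.35 to 16.1 CPM at 9 weeks, and the part of luminal RNA in the 9-week basal libraries was not tested. *Ehf* spanned 175 to 852 CPM in luminal and 0 to 55.1 CPM in basal libraries. *Elf3* spanned 110 to 1839 CPM in luminal and 0 to 109 CPM in basal libraries. *Spdef* had medians of 24.9 CPM in luminal and 0.305 CPM in basal libraries, and was at 0 in 1 luminal library, that of BN control rats. *Kit* spanned 7.97 to 398 CPM in luminal and 0 to 36.7 CPM in basal libraries, with the highest basal values at 9 weeks. *Grhl2* was less divided, at a median of 31.0 CPM in luminal and 18.8 CPM in basal libraries.

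The difference between compartments was tested in each experiment with edgeR's quasi-likelihood test and Benjamini-Hochberg adjustment over all genes tested, with adjusted p under 0.05 as the threshold. At 9 weeks in *Cdkn1b*+/+ rats, 6 of the 9 genes differed between LP and basal cells, where 32.9% of all genes tested did. *Foxa1* was higher in LP by a log2 fold change of 3.84 ± 0.43 (SE, adjusted p = 4.64e-05), *Ehf* by 3.75 ± 0.64 (adjusted p = 0.000754) and *Spdef* by 3.43 ± 0.58 (adjusted p = 0.000734). *Elf5* was higher by 2.64 ± 0.33 (adjusted p = 9.78e-05) and *Elf3* by 2.55 ± 0.55 (adjusted p = 0.00326). *Tfap2c* was lower in LP, with a log2 fold change of -2.59 ± 0.22 (adjusted p = 8.17e-06). *Kit* (2.97 ± 1.18, adjusted p = 0.0685), *Gata3* (0.36 ± 0.29, adjusted p = 0.357) and *Grhl2* (0.37 ± 0.20, adjusted p = 0.166) did not pass. With the shared genotype and number as a block they did, at adjusted p = 1.08e-05, 0.0344 and 0.0249, so that all 9 genes passed.

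Mature luminal cells differed from basal cells in the same 6 genes, where 23.4% of all genes tested did. *Elf5* had the largest of these differences, a log2 fold change of 3.64 ± 0.37 (SE, edgeR adjusted p = 7.16e-05), and *Tfap2c* was again lower in the luminal cells (-1.84 ± 0.27, adjusted p = 0.000498). *Kit*, at 3.23 ± 1.27 (adjusted p = 0.0814), passed with the block (adjusted p = 9.68e-06).

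At 4 weeks 7 of the 9 genes differed between luminal and basal cells of *Cdkn1b*+/+ rats, where 26.6% of all genes tested did. *Kit* was at 108, 398 and 197 CPM in the luminal and at 0.485, 0.263 and 1.59 CPM in the basal libraries, a log2 fold change of 8.17 ± 0.98 (SE, edgeR adjusted p = 3.54e-05). *Elf5* (6.65 ± 0.73), *Foxa1* (6.01 ± 0.59) and *Ehf* (5.86 ± 0.56) followed, with adjusted p of 1.11e-05, 6.67e-06 and 4.77e-06. *Elf3* (3.97 ± 0.37) and *Spdef* (3.89 ± 0.46) were also higher in luminal cells. *Tfap2c* was at 413, 267 and 258 CPM in luminal and at 617, 811 and 696 CPM in basal libraries (-1.19 ± 0.36, adjusted p = 0.0259), and after scaling by TMM, the library scaling used in the test, it and the other 8 genes had no overlap, where 43.6% of all genes tested had none. The *Tfap2c* call was lost without luminal library 2 or 3 or basal library 2 or 3 (adjusted p of 0.113, 0.122, 0.0886 and 0.0594). *Gata3* (0.89 ± 0.32, adjusted p = 0.0528) and *Grhl2* (1.17 ± 0.46, adjusted p = 0.0785) passed with the title code as a block, at adjusted p = 0.0113 and 0.00554.

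At 6 weeks 7 genes differed, against 6.65% of all genes tested, and in the E2 experiment 5 did, against 7.58%. At 6 weeks these were *Ehf* (6.56 ± 0.75, SE), *Foxa1* (6.07 ± 1.24), *Kit* (5.97 ± 0.85), *Elf5* (5.96 ± 1.23), *Elf3* (4.43 ± 0.81) and *Spdef* upward and *Tfap2c* (-2.10 ± 0.47) downward, with edgeR adjusted p between 0.000404 and 0.0365. *Spdef* had 1 count in all 3 *Cdkn1b*+/+ basal libraries of 6 weeks, so its fitted fold change has no firm size. *Elf5* and *Spdef* were lost with the title code as a block (adjusted p = 0.0587 and 0.112). Without luminal library 1, luminal library 2 or basal library 2 the number fell to 4, 4 and 3 genes, and *Ehf*, *Elf3* and *Kit* were called in all 3 of those fits. Without basal library 1, *Tfap2c* (adjusted p = 0.0572) and *Spdef* (adjusted p = 0.0968) were lost. All 3 *Cdkn1b*+/+ basal libraries of 6 weeks were low in basal markers, and the part of this in these differences was not tested. Basal libraries 1 and 3 of that group held 10.3 and 66.5 CPM of mast cell markers, cells that also use *Kit*, beside 0.883 and 1.38 CPM of *Kit*. In the E2 experiment *Kit* (6.51 ± 0.90), *Elf5* (5.02 ± 1.03), *Foxa1* (4.73 ± 0.97), *Elf3* (4.46 ± 0.87) and *Ehf* (4.29 ± 0.48) were higher in luminal cells, with adjusted p between 0.000547 and 0.011. Without the 3 basal libraries low in basal markers, an alternative chosen after seeing the data, *Foxa1* (3.92, adjusted p = 0.149) and *Elf5* (4.43, adjusted p = 0.103) no longer passed.

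The promoters of 4 of the 9 genes, *Gata3*, *Elf3*, *Spdef* and *Kit*, were in the RefSeq promoter table. The first of these genes was present in both compartments while the other 3 were largely luminal. For all 4, the 250 bases before the transcription start on build GRCr8 are shown. They were searched on both strands for letters of motifs tied to the factors described here, and the share of 33469 promoter windows of this length that hold them is given for each. The forkhead letters TGTTTAC occur in 3.21% and the Gata factor letters AGATAA in 10.3%. The ETS letters AGGAAG occur in 29.5%, the AP-2 letters GCCNNNGGC in 12.6% and the grainyhead letters AACNGGTT in 1.76%. Capitals mark matches, none of which overlap, and each sequence is written 5′ to 3′ on the strand of its gene.
Gata3: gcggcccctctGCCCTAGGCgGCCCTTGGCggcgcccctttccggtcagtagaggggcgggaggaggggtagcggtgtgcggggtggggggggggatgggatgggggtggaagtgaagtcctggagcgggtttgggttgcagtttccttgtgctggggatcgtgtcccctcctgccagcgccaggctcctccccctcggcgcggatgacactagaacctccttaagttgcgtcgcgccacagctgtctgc
Elf3: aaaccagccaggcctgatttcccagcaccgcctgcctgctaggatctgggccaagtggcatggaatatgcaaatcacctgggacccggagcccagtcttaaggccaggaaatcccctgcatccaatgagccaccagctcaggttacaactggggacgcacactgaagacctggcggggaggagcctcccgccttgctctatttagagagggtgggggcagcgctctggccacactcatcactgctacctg
Spdef: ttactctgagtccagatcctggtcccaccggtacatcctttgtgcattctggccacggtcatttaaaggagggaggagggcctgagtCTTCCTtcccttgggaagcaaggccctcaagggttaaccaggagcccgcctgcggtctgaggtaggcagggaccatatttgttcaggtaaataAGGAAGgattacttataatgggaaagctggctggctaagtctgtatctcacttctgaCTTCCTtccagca
Kit: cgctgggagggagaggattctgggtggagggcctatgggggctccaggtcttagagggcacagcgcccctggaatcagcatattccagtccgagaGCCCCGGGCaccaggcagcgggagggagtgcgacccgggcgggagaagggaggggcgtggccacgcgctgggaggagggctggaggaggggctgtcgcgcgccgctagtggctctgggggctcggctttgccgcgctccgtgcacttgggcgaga
The *Gata3* window (chr17:73553298-73553547, plus strand) holds 2 AP-2 matches and the *Kit* window (chr14:32978813-32979062, minus strand) 1 AP-2 match. The *Spdef* window (chr20:5787686-5787935, minus strand) holds 3 ETS matches, and the *Elf3* window (chr13:49247087-49247336, minus strand) holds none of these letters. A match is a run of letters and not a bound site. The GC content of the windows was 68.4% for *Gata3*, 70.8% for *Kit*, 59.6% for *Elf3* and 51.6% for *Spdef*. In the RefSeq gene order of that build *Elf5* and *Ehf* are neighbours on chromosome 3, and *Kit* lies between *Kdr* and *Pdgfra*.

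Among luminal cells of 9-week *Cdkn1b*+/+ rats, 3 of the 9 genes differed between the mature luminal and the LP gates, where 13.2% of all genes tested did. *Foxa1* was at 23.6 and 24.9 CPM in the mature luminal libraries and at 84.4, 47.7, 96 and 61.7 CPM in the LP libraries, lower in every mature luminal library (log2 fold change -1.34 ± 0.37, SE, edgeR adjusted p = 0.0299). *Elf5* was at 109 and 76.1 CPM in mature luminal and at 56.1, 44.2, 63.4 and 52.1 CPM in LP libraries, higher in every mature luminal library (1.00 ± 0.28, adjusted p = 0.0325). *Tfap2c* was at 205 and 124 CPM in mature luminal and at 133, 110, 126 and 85.5 CPM in LP libraries, which overlap in plain CPM (0.75 ± 0.22, adjusted p = 0.0385). After TMM scaling these 3 members had no overlap, where 43.3% of all genes tested had none. *Kit*, the surface mark used for progenitors, was at 94.0 and 270 CPM in mature luminal and at 75.2, 296, 66.9 and 288 CPM in LP libraries, and did not pass (0.26 ± 0.99, 95% interval -1.88 to 2.40, adjusted p = 0.884).

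These directions stand beside marker sums, of which that of hormone-sensing genes goes against the gates' names. Luminal markers summed to 27926 and 48776 CPM in *Cdkn1b*+/+ mature luminal libraries 1 and 2. They summed to 18075 and 29136 CPM in Cd49b+ and to 19089 and 29680 CPM in PNA+ libraries 1 and 2. Milk protein genes summed to 81505 and 38788 CPM in mature luminal and to 47123, 20624, 61416 and 23918 CPM in these LP libraries. Both sums were higher in the mature luminal library of each number, and their part was not tested. Hormone-sensing markers (*Esr1*, *Pgr*, *Prlr*, *Cited1*, *Areg* and *Tnfsf11*, the last at 0 in these libraries) summed to 178 to 216 CPM in the *Cdkn1b*+/+ libraries labelled mature luminal and to 378 to 532 CPM in those labelled LP. Of the 6, *Pgr* (-1.78, edgeR adjusted p = 0.0201) and *Prlr* (-1.67, adjusted p = 0.00929) were lower in the mature luminal gate. Endothelial markers, all 6 detected, summed to 126 to 130 CPM in mature luminal and 513 to 987 CPM in LP libraries, and their part in the *Foxa1*, *Elf5* and *Tfap2c* differences was not tested. With the LP libraries of the same number summed, none of the 3 genes passed (adjusted p of 0.106 for *Foxa1*, 0.105 for *Elf5* and 0.156 for *Tfap2c*).

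Leaving out single *Cdkn1b*+/+ libraries ended all 3 of these calls without Cd49b+ library 1, mature luminal library 1 or PNA+ library 2, where the largest adjusted p was 0.393, for *Tfap2c* without mature luminal library 1. *Foxa1* was the only 1 of the 3 still called without Cd49b+ library 2, and *Tfap2c* the only 1 without mature luminal library 2. Without PNA+ library 1, *Foxa1* alone was lost (adjusted p = 0.0542). Its log2 fold change stayed between -1.47 and -1.17 in these 6 fits. With genotype and number as a block, *Elf3* (0.79, adjusted p = 0.00026) and *Kit* (0.43, adjusted p = 0.00535) passed as well, both higher in the mature luminal gate.

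In *Cdkn1b*-/- rats none of the 9 genes passed between the same gates, where 0.312% of all genes tested did. *Foxa1* was at 7.53 and 23.9 CPM in mature luminal and at 19.6, 24.8, 19.4 and 28.7 CPM in LP libraries (-0.53 ± 0.36, SE, edgeR adjusted p = 0.458). *Elf5* was at 83.1 and 79.2 CPM in mature luminal and at 71.1, 45.1, 69.2 and 50.0 CPM in LP libraries, above all of them in plain CPM but not after TMM scaling, under which no member and 27.2% of all genes tested were without overlap (0.53 ± 0.28, adjusted p = 0.340). The 2 LP gates themselves gave no difference, with log2 fold changes of PNA+ over Cd49b+ between -0.16 (*Ehf*) and 0.40 (*Spdef*) and adjusted p of 1, where 0% of all genes tested passed. For *Kit* that interval reached from -1.84 to 1.63.

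Loss of p27 was compared first in LP cells of 9 weeks, where 2 of the 9 genes differed between genotypes and 4.35% of all genes tested did. *Foxa1* fell. It was at 84.4, 47.7, 96 and 61.7 CPM in the *Cdkn1b*+/+ libraries, in the order Cd49b+ 1 and 2 and PNA+ 1 and 2, and at 19.6, 24.8, 19.4 and 28.7 CPM in the *Cdkn1b*-/- libraries. Every *Cdkn1b*-/- library was below every *Cdkn1b*+/+ library. The log2 fold change was -1.34 ± 0.29 (SE, 95% interval -1.95 to -0.72, edgeR adjusted p = 0.0196), a 2.53-fold lower level. *Tfap2c* rose, from 133, 110, 126 and 85.5 CPM in *Cdkn1b*+/+ to 138, 202, 143 and 190 CPM in *Cdkn1b*-/- libraries, again without overlap (0.87 ± 0.19, 95% interval 0.47 to 1.27, adjusted p = 0.0196).

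**Figure D2:**
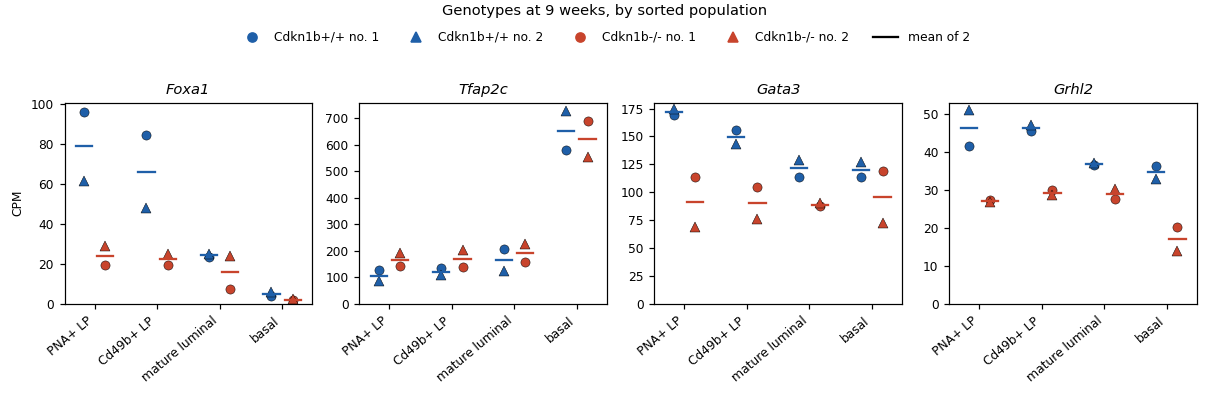
Levels of *Foxa1*, *Tfap2c*, *Gata3* and *Grhl2* in CPM in the 16 libraries of 9 weeks, by gate and genotype, with 1 point per library. In the LP gates the *Cdkn1b*-/- libraries lie at 19.4 to 28.7 CPM for *Foxa1*, below the *Cdkn1b*+/+ libraries at 47.7 to 96 CPM, and above them for *Tfap2c*.

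Both calls are close to the threshold. Cd49b+ and PNA+ libraries of the same genotype and number deviated together from their group means, so 4 libraries per genotype may hold fewer independent samples and these p-values are then too small. With both LP libraries of a number summed, the log2 fold changes were -1.37 for *Foxa1* and 0.84 for *Tfap2c* with adjusted p of 0.421 and 0.469, and neither passed in PNA+ or in Cd49b+ libraries alone. *Foxa1* was lost without *Cdkn1b*-/- Cd49b+ 1 (adjusted p = 0.0577), *Cdkn1b*-/- PNA+ 1 (0.0568), *Cdkn1b*+/+ Cd49b+ 1 (0.0576) or *Cdkn1b*+/+ PNA+ 1 (0.0589). *Tfap2c* was lost without *Cdkn1b*-/- PNA+ 2 (0.0666), *Cdkn1b*+/+ Cd49b+ 2 (0.0588) or *Cdkn1b*+/+ PNA+ 2 (0.0743).

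The other 7 genes did not pass in LP cells. *Grhl2* was at 45.7, 47.1, 41.6 and 51.2 CPM in *Cdkn1b*+/+ and at 29.9, 28.6, 27.4 and 26.7 CPM in *Cdkn1b*-/- LP libraries, groups that do not overlap (-0.40 ± 0.16, SE, edgeR adjusted p = 0.182). After scaling by TMM, as in the test, *Foxa1*, *Tfap2c*, *Grhl2* and *Elf3* were the members without overlap, where 13.1% of all genes tested had none. *Gata3* was at 156, 143, 169 and 175 CPM in *Cdkn1b*+/+ and 104, 75.9, 114 and 68.8 CPM in *Cdkn1b*-/- libraries, separate in plain CPM but not after TMM scaling (-0.48 ± 0.23, adjusted p = 0.283). *Elf3* (0.74 ± 0.39, adjusted p = 0.327), *Elf5* (0.47 ± 0.24, adjusted p = 0.295), *Spdef* (-0.64 ± 0.39, adjusted p = 0.403), *Ehf* (-0.08 ± 0.42, adjusted p = 0.945) and *Kit* (0.14 ± 0.82, adjusted p = 0.95) complete the list. The median log2 fold change was -0.08 over the 9 genes and 0.03 over all genes tested.

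**Figure D3:**
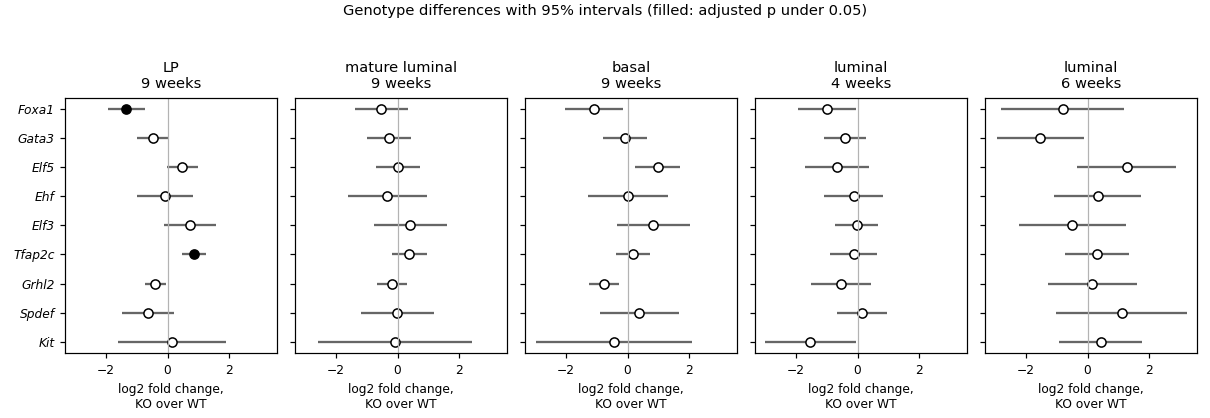
Log2 fold change of *Cdkn1b*-/- over *Cdkn1b*+/+ with its 95% interval for each of the 9 genes in LP, mature luminal and basal cells of 9 weeks and in luminal cells of 4 and 6 weeks, with filled points where the adjusted p was under 0.05. The filled points are *Foxa1* and *Tfap2c* in LP cells, at -1.34 and 0.87.

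Marker sums of the same LP libraries follow. The hormone-sensing sum was 378 to 532 CPM in *Cdkn1b*+/+ and 142 to 200 CPM in *Cdkn1b*-/- LP libraries, and *Prlr* (-1.19, edgeR adjusted p = 0.0231) and *Cited1* (-2.28, adjusted p = 0.0128) of its 5 tested genes passed. Milk protein genes summed to 20624 to 61416 CPM in *Cdkn1b*+/+ and 101869 to 181053 CPM in *Cdkn1b*-/- LP libraries, and 1 of the 5, *Wap*, passed. The endothelial sum was 513 to 987 CPM in *Cdkn1b*+/+ and 196 to 1200 CPM in *Cdkn1b*-/- LP libraries, which overlap, and 0 of 6 genes passed. Melanocyte genes, 3 of 5 in the files, summed to 0.0884 to 0.463 CPM in *Cdkn1b*+/+ and 1.77 to 12.2 CPM in *Cdkn1b*-/- LP libraries, and *Mlana* (4.68, edgeR adjusted p = 0.0151) of the 2 tested passed. Lymphoid genes summed to 0.114 to 0.262 CPM and 0.321 to 1.98 CPM, with *Cd3e* (3.62, adjusted p = 0.0462) of the 4 tested passing. Basal markers summed to 260 to 758 CPM in *Cdkn1b*+/+ and 220 to 2051 CPM in *Cdkn1b*-/- LP libraries. None of the 7 tested passed. The highest sum was in *Cdkn1b*-/- Cd49b+ library 2, which also had the highest *Tfap2c* level of these libraries, 202 CPM. Fibroblast markers summed to 586 to 1532 CPM and 168 to 1096 CPM in the same order, and none of the 5 tested passed. The part of these marker genes in the *Foxa1* and *Tfap2c* differences was not tested.

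In mature luminal cells none of the 9 genes passed between genotypes, where 0.133% of all genes tested did. *Foxa1* was at 23.6 and 24.9 CPM in *Cdkn1b*+/+ and at 7.53 and 23.9 CPM in *Cdkn1b*-/- libraries (-0.53 ± 0.40, SE, edgeR adjusted p = 0.887). *Tfap2c*, at 205 and 124 against 158 and 226 CPM, had a log2 fold change of 0.38 ± 0.26 (adjusted p = 0.853). In basal cells none passed either, where 0.0625% of all genes tested did. There *Foxa1*, at 3.98 and 5.68 against 1.71 and 2.16 CPM, gave -1.08 ± 0.44 (adjusted p = 0.432), and *Grhl2*, at 36.4 and 32.9 against 20.2 and 13.8 CPM, gave -0.77 ± 0.23 (adjusted p = 0.284). *Elf5* was at 7.35 and 9.19 against 16.1 and 11.3 CPM (0.98 ± 0.34, adjusted p = 0.357). These 3 genes were the members whose basal groups did not overlap, where 37.0% of all genes tested had none.

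The genotype difference itself was not shown to depend on the gate. For *Foxa1* the LP effect minus the mature luminal effect was -0.81 ± 0.49 (SE, 95% interval -1.86 to 0.25, edgeR adjusted p = 1), and minus the basal effect -0.26 ± 0.52 (adjusted p = 0.952). For *Tfap2c* these differences were 0.48 ± 0.32 (adjusted p = 1) and 0.70 ± 0.32 (adjusted p = 0.622). No gene passed either of these tests, in which 246 and 1017 genes had an unadjusted p under 0.05. *Grhl2* was lower in all 8 *Cdkn1b*-/- libraries, at most 30.2 CPM, than in all 8 *Cdkn1b*+/+ libraries, at least 32.9 CPM, across the 4 gates. That separation was not kept after TMM scaling, under which 0.531% of all genes tested had no overlap between all libraries of the genotypes.

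At 9 weeks, *Kit* varied more between the numbered libraries of a genotype than between genotypes. In *Cdkn1b*-/- rats it was at 281, 217, 244 and 22.9 CPM in the number 1 libraries of the Cd49b+, PNA+, mature luminal and basal gates and at 53.2, 65.4, 50.0 and 4.42 CPM in those of number 2. In *Cdkn1b*+/+ rats the order was the other way, at 75.2, 66.9, 94.0 and 7.05 CPM in number 1 and at 296, 288, 270 and 36.7 CPM in number 2. The fold between numbers was thus 3.32 to 5.29 in *Cdkn1b*-/- and 2.87 to 5.20 in *Cdkn1b*+/+ libraries. Of 7668 genes with a mean log2 CPM of at least 3, 1.24% in *Cdkn1b*-/- and 3.98% in *Cdkn1b*+/+ rats differed at least 2-fold in the same direction in all 4 gates. Mast cell markers, whose cells also carry the receptor, summed to 0.1 to 2.7 CPM in these 16 libraries.

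*Ehf* followed the same order of numbers as *Kit*. Its number 1 library was higher in all 4 gates of *Cdkn1b*-/- rats, by 1.05- to 2.86-fold, and its number 2 library in all 4 gates of *Cdkn1b*+/+ rats, by 1.26- to 1.86-fold. *Elf3* was higher in number 2 in all 4 gates of both genotypes, by 1.26- to 1.83-fold in *Cdkn1b*-/- and 1.90- to 3.15-fold in *Cdkn1b*+/+ libraries, and *Spdef* in number 2 of *Cdkn1b*-/- rats by 1.54- to 3.72-fold. *Gata3*, *Tfap2c* and *Grhl2* kept no common direction in either genotype. Same direction in all 4 gates was found for 45.8% of the 7668 genes in *Cdkn1b*-/- and 61.6% in *Cdkn1b*+/+ rats. Whether a number marks an animal, a sorting day or a batch of libraries is not given in the labels.

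**Figure D4:**
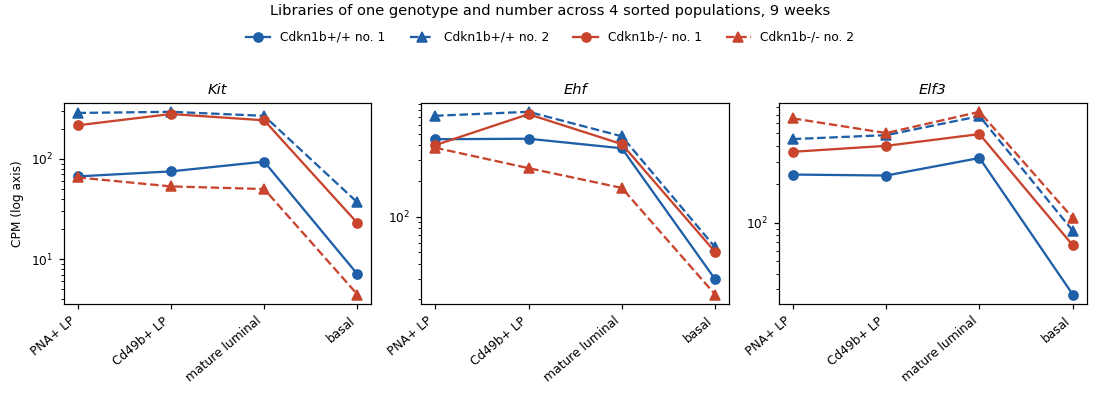
Levels of *Kit*, *Ehf* and *Elf3* in CPM on a log axis in the 9-week libraries, with 1 line per genotype and number across the 4 gates. For *Kit*, number 1 lies above number 2 in *Cdkn1b*-/- and below it in *Cdkn1b*+/+ rats. This holds in all 4 gates, by 2.87-fold or more.

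In the younger rats none of the 9 genes passed between genotypes in the luminal cells of 4 weeks, where 0% of all genes tested did. *Foxa1* was at 30.7, 69.4 and 70.3 CPM in *Cdkn1b*+/+ and at 15.3, 18.8 and 45.0 CPM in *Cdkn1b*-/- libraries, which overlap (-0.99 ± 0.44, SE, edgeR adjusted p = 0.829). *Kit* was at 108, 398 and 197 against 18.3, 45.2 and 167 CPM, also overlapping (-1.54 ± 0.69, adjusted p = 0.829). *Tfap2c*, at 413, 267 and 258 against 216, 331 and 226 CPM, gave -0.13 ± 0.36 (95% interval -0.90 to 0.64, adjusted p = 0.928). *Gata3* was at 285, 382 and 416 against 157, 257 and 328 CPM (-0.40 ± 0.32, adjusted p = 0.829), and the other 5 genes had log2 fold changes between -0.67 (*Elf5*) and 0.14 (*Spdef*). In the basal cells of 4 weeks, with 0% of all genes called, *Spdef* was at 2.14, 0.683 and 3.01 against 0.404 and 0.388 CPM, the only member whose groups did not overlap (-2.13 ± 0.73, adjusted p = 0.998), where 9.11% of all genes tested had none.

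At 6 weeks 1.80% of all genes tested in luminal cells differed between genotypes and none of the 9 genes did. *Gata3* was at 693 and 641 CPM in *Cdkn1b*+/+ and at 441 and 52.0 CPM in *Cdkn1b*-/- libraries (-1.54 ± 0.66, SE, edgeR adjusted p = 0.186), and *Foxa1* was at 74.8 and 27.5 against 59.9 and 0.862 CPM (-0.82 ± 0.95, adjusted p = 0.634). The lower value of each is that of the library with adipocyte RNA, whose luminal markers summed to 8311 CPM against 15343 to 20516 CPM in the other 3. Its fibroblast and endothelial markers, at 3076 and 1376 CPM, were also the highest of these libraries, and the part of those cells was not tested. With that library as the only *Cdkn1b*-/- sample, assumed to vary like the other groups, *Gata3* (-3.33, adjusted p = 0.00632) and *Foxa1* (-5.49, adjusted p = 0.0168) passed, and without it the log2 fold change of *Foxa1* was 0.098 and that of *Gata3* -0.76. *Elf5* was at 6.67 and 22.0 against 47.1 and 23.2 CPM (1.28 ± 0.76, adjusted p = 0.323). In basal cells of 6 weeks none of the 9 passed, where 0.109% of all genes tested did.

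Between 4 and 6 weeks, fitted together in *Cdkn1b*+/+ rats, none of the 9 genes passed in luminal cells, where 7.65% of all genes tested did. *Kit* came nearest, from 108, 398 and 197 CPM at 4 weeks to 42.1 and 60.3 CPM at 6 weeks, every 6-week library lower (-2.11 ± 0.71, SE, edgeR adjusted p = 0.0683). *Tfap2c*, from 413, 267 and 258 to 95.9 and 188 CPM, was likewise lower in both (-1.15 ± 0.44, adjusted p = 0.110), and *Gata3*, from 285, 382 and 416 to 693 and 641 CPM, higher in both (0.91 ± 0.49, adjusted p = 0.261). These 3 genes, *Elf5* and *Elf3* were the members without overlap after TMM scaling, where 51.0% of all genes tested had none. In basal cells *Spdef* was the 1 member called, where 19.5% of all genes tested were (adjusted p = 0.0350). It had 112 counts in the 3 basal libraries of 4 weeks and 1 count in the 3 of 6 weeks, a ratio of CPM of 71.3 with a counting interval (95%, exact) of 12.5 to 2840. The call was lost without basal library 1 or 3 of 4 weeks (adjusted p = 0.0750 and 0.0922) or 1 or 2 of 6 weeks (0.0828 and 0.0628). Beside it, 5 of 7 basal and 3 of 5 fibroblast markers tested were lower at 6 weeks, with 2 of 3 mast cell markers higher and, of 6 myeloid markers, 2 higher and 1 lower. The basal markers had a median log2 fold change of -1.74, and the part of these cells in the *Spdef* difference was not tested. The ages are separate sets of libraries, of which those of 6 weeks were shallower, so age and set cannot be told apart.

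In the E2 experiment the comparison of E2 with control rats, with strain in the model, called no gene in luminal cells, 0% of those tested, and 638 had an unadjusted p under 0.05. *Foxa1* was at 257 and 219 CPM in ACI control, 99.9 and 11.5 CPM in ACI E2, 4.72 CPM in BN control and 38.0 CPM in BN E2 libraries. It was thus lower in both E2 libraries of ACI and higher in that of BN (log2 fold change over both strains -1.20 ± 1.37, SE, edgeR adjusted p = 0.949). *Grhl2* was at 44.9 and 50.3 CPM in ACI control, 8.42 and 20.7 CPM in ACI E2, 28.3 CPM in BN control and 17.7 CPM in BN E2 libraries (-1.48 ± 0.70, adjusted p = 0.814). *Kit*, at 70.1 and 7.97 CPM in ACI control, 70.7 and 81.9 CPM in ACI E2, 45.7 CPM in BN control and 128 CPM in BN E2 libraries, had a log2 fold change of 0.90 ± 0.78 (adjusted p = 0.920). ACI E2 luminal library 1, the one high in fibroblast and adipocyte markers, holds the lowest ACI values of *Grhl2*, *Spdef*, *Tfap2c* and *Elf5*. Without it the log2 fold changes with E2 were -1.11 for *Foxa1*, -1.08 for *Grhl2*, 0.58 for *Spdef*, -0.04 for *Tfap2c* and 1.48 for *Elf5*, none of which passed, and the part of those cells was not tested.

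Of the ETS genes, *Elf3* was at 729 and 513 CPM in ACI control, 929 and 1839 CPM in ACI E2, 763 CPM in BN control and 227 CPM in BN E2 luminal libraries. It was higher in both ACI E2 libraries than in both ACI controls and lower in the BN E2 library than in its control. *Spdef* was at 33.7 and 44.4 CPM in ACI control, 7.39 and 27.8 CPM in ACI E2, 0 in BN control and 4.59 CPM in BN E2 libraries. *Ehf* (254 to 852 CPM) and *Gata3* (36.9 to 273 CPM) had log2 fold changes of -0.05 and -0.08 with E2. *Tfap2c* was at 121 and 146 CPM in ACI control, 18.0 and 173 CPM in ACI E2, 265 CPM in BN control and 207 CPM in BN E2 libraries, so the ACI E2 libraries lay on either side of their controls. *Elf5* was at 4.88 and 3.48 CPM in ACI control, 1.46 and 17.3 CPM in ACI E2, 11.5 CPM in BN control and 23.3 CPM in BN E2 libraries. Neither passed (log2 fold changes of -0.52 and 1.07, edgeR adjusted p = 0.962 and 0.939). Basal markers summed to 47.3 and 334 CPM in the ACI control and to 303 and 981 CPM in the ACI E2 luminal libraries. They summed to 1049 CPM in the BN control and 90.4 CPM in the BN E2 library. Their part in the levels of *Tfap2c*, the member higher in basal cells, was not tested.

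**Figure D5:**
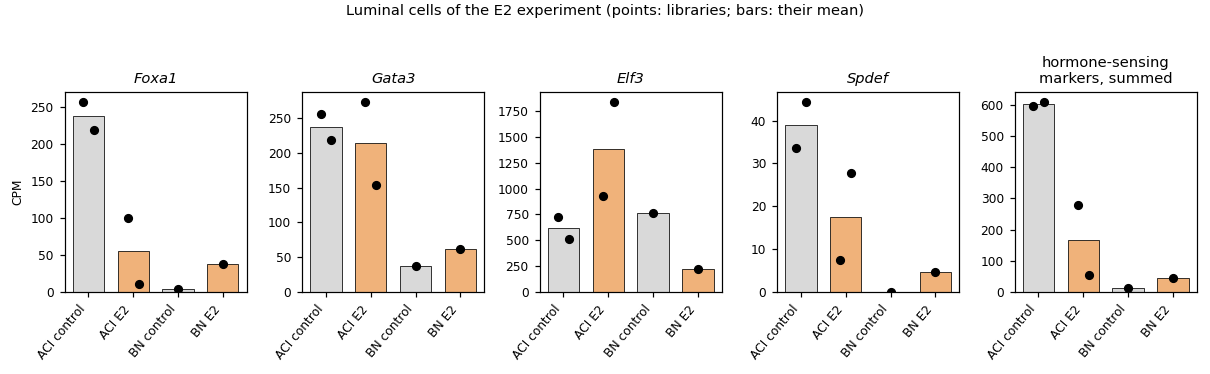
Levels of *Foxa1*, *Gata3*, *Elf3* and *Spdef* and the sum of hormone-sensing markers in CPM in the luminal libraries of the E2 experiment, by strain and treatment, with 1 point per library and bars at the mean. BN arms have 1 library each. *Foxa1* and the marker sum are both highest in ACI control libraries, at 219 to 257 and 595 to 609 CPM.

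Between strains, ACI minus BN, no gene passed in luminal cells either, 0% of those tested, and 680 had an unadjusted p under 0.05. *Gata3* was at 154 to 273 CPM in the 4 ACI and at 36.9 and 62.5 CPM in the BN luminal libraries (1.67 ± 0.52, SE, 95% interval 0.46 to 2.88, edgeR adjusted p = 0.716). *Spdef*, at 7.39 to 44.4 CPM in ACI and 0 and 4.59 CPM in BN libraries, had a log2 fold change of 3.0 ± 1.47 (adjusted p = 0.731). *Ehf* was at 254 to 541 CPM in ACI and 852 and 667 CPM in BN libraries (-1.20 ± 0.45, adjusted p = 0.731). After TMM scaling *Gata3*, *Ehf* and *Tfap2c* were the members without overlap between strains, where 15.2% of all genes tested had none. The basal marker sums of these libraries stand above, and their part in the *Tfap2c* separation was not tested. The hormone-sensing sum was 595 to 609 CPM in ACI control, 54.3 to 278 CPM in ACI E2, 14.2 CPM in BN control, with 5 of its 6 genes at 0, and 46.1 CPM in BN E2 libraries, and its part in these levels was not tested. In basal cells *Elf5*, *Spdef* and *Kit* were too low to be tested, and none of the other 6 passed for E2 or strain, where 0% of all genes tested did, with 359 and 152 at an unadjusted p under 0.05.

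Other regulators of the lineage, a list of 46 partners, relatives and luminal factors, were read beside the 9 genes. In LP cells 43 were tested between genotypes, of which 1 rose and 3 fell, where 2.59% and 1.76% of all genes tested did. *Sox10* (1.63, edgeR adjusted p = 0.0229) rose, and *Prlr*, *Cited1* and the AP-2 gene *Tfap2b* (-1.78, adjusted p = 0.0088) fell. *Tfap2c*, another AP-2 gene, was at 0.87. *Sox10* is also a gene of melanocytes, whose values stand above, and of Schwann cells. The 4 Schwann markers, *Sox10* among them, summed to 222 to 362 CPM in *Cdkn1b*+/+ and 224 to 452 CPM in *Cdkn1b*-/- LP libraries. Of these markers 1 was called higher and 1 lower, and the part of both cell types was not tested. Between LP and basal cells 16 of the 43 were higher in LP and 6 lower, where 13.8% and 19.1% of all genes tested were, among them the Stat5 genes *Stat5a* (1.60) and *Stat5b* (0.84), which carry the prolactin signal, upward and *Runx1* (-1.92) downward. Of the 13 basal regulators 11 were tested and 6 were lower in LP than in basal cells, such as *Snai2* (-4.28) and *Id4* (-2.65), while *Zeb1* (2.69) and *Zeb2* (2.03) were higher. At 4 weeks 9 of 10 tested were lower in luminal cells and 1 was higher, where 15.4% and 11.2% of all genes tested were. Between genotypes in LP cells *Srf* (-1.17, adjusted p = 0.0012) was the only basal regulator called.

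The ligand of Kit, *Kitlg*, ran opposite to its receptor. It was lower in luminal than in basal cells in each comparison, with log2 fold changes of -1.59 (LP, edgeR adjusted p = 0.0208), -3.98 (mature luminal, adjusted p = 0.000872), -3.32 (4 weeks, adjusted p = 0.000131), -2.03 (6 weeks, adjusted p = 0.0110) and -2.67 (E2 experiment, adjusted p = 0.00176). *Lyn*, a kinase that acts downstream of the receptor, was higher in luminal cells in all 5, by 2.20 to 3.36. None of the 6 genes of this pathway list passed between genotypes at 9 weeks. Of 14 genes known as targets of these factors, the milk protein gene *Wap* was higher in *Cdkn1b*-/- rats in LP (3.97, adjusted p = 0.000148), mature luminal (3.08, adjusted p = 0.0370) and basal cells (4.59, adjusted p = 0.00408), and the other 13 did not pass at 9 weeks, where *Elf5*, a regulator of milk genes, had log2 fold changes of 0.47, 0.00 and 0.98.

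Over the 28 luminal libraries, with each experiment centred on its own mean, the 36 pairs of the 9 genes had Pearson correlations from -0.42 to 0.83 with a median of 0.06, and 22 were positive. The points share depth, scaling and, in part, animals. *Foxa1* and *Gata3* were the closest pair over all 28 (r = 0.83, Spearman's rho 0.79), but without the library with adipocyte RNA their r of 0.71 was below that of *Elf5* and *Tfap2c* at 0.74. *Elf5* and *Tfap2c* were at 0.44 without the E2 experiment, and *Ehf* and *Kit* had r = 0.65. *Tfap2c* and *Grhl2* had r = 0.38 (rho -0.31) over all 28 and changed sign, to r = -0.71, without the E2 experiment. *Elf5* ran against *Gata3* (r = -0.42) and *Foxa1* (r = -0.41), at -0.24 and -0.31 without the E2 experiment. Of 7351 genes, those nearest in pattern were *Man1c1* for *Foxa1* (r = 0.92), *Lrp1* for *Gata3* (0.92), *Steap3* for *Elf5* (0.89), *Cp* for *Ehf* (0.84) and *RT1-A3* for *Elf3* (0.76). For *Tfap2c* it was *Fam110a* (0.92, but 0.69 without the E2 experiment) and for *Spdef* *Cst6* (0.92, but 0.75 without that experiment). For *Grhl2* it was *Pitpnm2* (0.91) and for *Kit* *App* (0.92, rho 0.91).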

How the data were processed

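RNA of sorted cells was made into single-end SMARTer libraries. According to the submitters' notes the authors aligned reads to rn6 with STAR 2.5.1b and counted them with HTSeq, and the deposited files hold raw counts per gene, of which 47.1% to 77.0% per library fell in rows that name no gene and were left out. Strand use was not given in the sources used here. The 9 genes and all lists were chosen with earlier results of these data known. Counts were tested with edgeR 4.0.16 (R 4.3.3; filterByExpr by group, TMM, quasi-likelihood, Benjamini-Hochberg over all genes) within the 9-week set, each younger age (both together between ages) and, by cell type, the E2 experiment, where a gate comparison used all libraries of the set. TMM factors at 9 weeks were 0.789 to 1.12 in *Cdkn1b*-/- and 0.928 to 1.19 in *Cdkn1b*+/+ libraries. Levels are CPM, and sums over markers are summed CPM. Scripts were tested on simulated data. Deviations of libraries that share genotype and number at 9 weeks correlated at 0.363 to 0.943 (12 pairs), and those of 4 weeks that share a title code at 0.220 to 0.880 (5 pairs), at 6 weeks at 0.00045 to 0.147 and in the E2 experiment at 0.0369 to 0.229. No library pair of a group was identical. DESeq2 1.42.0 was an alternative. Patterns used genes with a mean log2 CPM of at least 3. The 2 deposited peak files were not used. Sequences are from RefSeq, GRCr8. Intervals on counts cover counting error only.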

Additional observations from a re-analysis of the deposited data

Results flagged for a closer look

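Of 45 sets of effects set side by side (E2 effects by strain, genotype effects by age or gate), 4 ran in opposite directions in every library of each group, and the difference was not tested. All 4 were E2 effects by strain. In BN, 1 library against 1 gives a direction whenever the values differ. The share of all genes that would be flagged this way was not computed, so the count of 4 is not read as a result. The ratio of mean CPM, E2 over control, was 0.234 in ACI (55.7 against 237.7 CPM) and 8.04 in BN (38.0 against 4.72 CPM) for *Foxa1* in luminal cells. In basal cells it was 0.426 in ACI (1.64 against 3.85 CPM) and 5.45 in BN (6.41 against 1.18 CPM) for *Foxa1*, with 1 count in ACI E2 basal library 1, a library low in basal markers, and 16612 CPM of fibroblast markers in the BN E2 basal library, whose part was not tested. For *Elf3* in luminal cells it was 2.23 in ACI (1384 against 620.7 CPM) and 0.298 in BN (227 against 763 CPM). For *Spdef* in luminal cells it was 0.450 in ACI (17.6 against 39.1 CPM) and at least 38.2 in BN, where the control library was at 0 and a floor of 3 counts per library was used. BN had 1 library per arm, so none of the BN ratios has a replicate check. In 18 tests, each of 1 gene in 1 LP group of 4 libraries, no member had a library beyond Dixon's limit. LP libraries of the same genotype and number deviated together. A pair that deviates together is hidden from a test of single libraries, so the outcome does not cover such pairs.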

How the results depend on the processing

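Of 207 values, 9 genes in 23 comparisons, 37 passed the threshold, none of these changed sign in any alternative, and 22 passed in every alternative in which the gene was tested. A further 15 passed in an alternative only, and 81 of the 155 that never passed changed sign somewhere. Numbers of the 9 genes called moved as follows, and the cause was not tested save where fewer genes or samples entered. Between genotypes in LP cells, 2 became 0 with the LP libraries summed, with PNA+ alone and with Cd49b+ alone, and 1 to 2 with single libraries left out. Between genotypes in basal cells of 9 weeks, 0 became 1 (*Grhl2*, -0.80) with DESeq2 and with crossed numbers as the block. Between mature luminal and LP *Cdkn1b*+/+ cells, 3 became 5 with the replicate block, 0 with LP libraries summed and 0 to 2 with single libraries left out, and *Kit* moved between -0.82 and 0.79. Between luminal and basal cells of the E2 experiment, 5 became 2 with the older quasi-likelihood estimate, 3 without the 3 basal libraries low in basal markers, and 1 with at least 10 counts in every library, which left 3 members. That filter also gave 3 of 7 at 4 weeks, 1 of 7 at 6 weeks and 0 of 1 between ages in basal cells, where leaving out libraries gave 0 to 1. At 6 weeks the older estimate gave 4 of 7 and leaving out libraries 3 to 7. In luminal cells of 6 weeks between genotypes, 0 became 2 without *Cdkn1b*-/- library 1, and *Foxa1* moved between -5.49 and 0.098. Same-numbered libraries of the genotypes deviated in opposite directions (-0.466 to -0.196), so a block on the plain number across genotypes kept *Foxa1* and *Tfap2c* and the crossed block, chosen after seeing the data, called 1488, 151 and 115 of all genes in LP, mature luminal and basal cells and added *Grhl2* (-0.41, adjusted p = 0.0394) in LP. The replicate block changed no other call than those given here and in the text. Peak alternatives were not run.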
